A study of Mus musculus with 4 samples.

Results

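The 9 genes described here build and hold the light-sensing outer segment of the photoreceptor: Rom1 and Prph2 of the disc rim, Prom1, Cdhr1 and Fscn2 of disc formation, Rp1 and Rp1l1 of the axoneme, and Impg2 and Impg1 of the matrix around the outer segment. They were chosen by name, and each was read from its single probe set with 1 gene symbol, so all 9 were measured among the 19421 genes of the table. Expression was measured on 4 microarrays in whole retina of mice at postnatal day 63. The 2 knockout pools came from Nrlflox/flox; CAG-CreERTM mice and the 2 control pools from Nrlflox/+; CAG-CreERTM mice, and each pool held 4 retinas of 2 animals. Mice of both groups received 4-hydroxytamoxifen each day from postnatal day 42 to 44, so that retinas were taken 19 days after the last injection. The controls thus carried a floxed allele, the Cre and the drug as well, and kept an intact Nrl allele. CAG is a promoter active in most cell types, so deletion was not limited to photoreceptors by design, and the share of cells that lost Nrl was not measured. Nrl is a transcription factor that rods need to take on and keep their identity, and the comparison asks what changes when it is lost from the adult retina.

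A rod outer segment is a stack of membrane discs wrapped in the plasma membrane and built on a modified cilium. New discs form at its base as folds of membrane, and the hairpin rim of each disc is bent and held by complexes of the tetraspanins peripherin-2, the product of Prph2, and ROM1. Bundles of microtubules run up from the cilium along one side of the stack, and a matrix rich in proteoglycans surrounds the outer segment and ties it to the neighbouring epithelium. Defects in most of these genes cause retinal degeneration in humans.

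The outcome differed by gene. Rom1 fell to 42.2% of the control signal in the knockout, and it alone of the 9 passed the test over all genes. Rp1 and Prph2 stood at 60.2% and 65.6% of control, and Impg2 and Prom1 at 141% and 125%, without passing it. Cdhr1, Fscn2, Rp1l1 and Impg1 lay between 85.2% and 111% of control.

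The sequences just before the start of 3 of these genes are shown because the genes differ in how they moved: Rom1 was called, Prph2 lay lower without being called, and Cdhr1 lay close to its control level. In these 3 the start used by RefSeq is also the outer end of the gene, so the stretch holds no transcript of the gene itself. They are the 250 bases upstream, 5′ to 3′ on the strand of the gene, from RefSeq on GRCm38.p6, at chr19:8929357-8929606 (minus strand) for Rom1, chr17:46910228-46910477 (plus strand) for Prph2 and chr14:37098348-37098597 (minus strand) for Cdhr1. Capitals mark TAATC, a short core bound by homeodomain proteins of the CRX and OTX type, on either strand.
Rom1: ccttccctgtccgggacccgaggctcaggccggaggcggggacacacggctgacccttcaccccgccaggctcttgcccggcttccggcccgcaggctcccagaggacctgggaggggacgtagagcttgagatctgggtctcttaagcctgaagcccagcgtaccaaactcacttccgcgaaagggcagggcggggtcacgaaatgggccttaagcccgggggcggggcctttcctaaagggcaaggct
Prph2: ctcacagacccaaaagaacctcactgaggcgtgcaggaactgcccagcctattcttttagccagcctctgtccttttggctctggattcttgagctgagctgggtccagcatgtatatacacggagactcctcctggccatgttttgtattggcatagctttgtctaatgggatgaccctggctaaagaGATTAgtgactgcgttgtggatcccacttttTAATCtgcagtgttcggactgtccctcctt
Cdhr1: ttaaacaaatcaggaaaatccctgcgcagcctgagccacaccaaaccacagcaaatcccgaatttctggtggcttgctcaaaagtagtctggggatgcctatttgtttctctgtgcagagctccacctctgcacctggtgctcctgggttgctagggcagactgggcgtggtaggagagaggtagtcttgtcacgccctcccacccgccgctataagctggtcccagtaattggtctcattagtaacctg

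The Rom1 stretch was the richest in G and C of the 3, at 66.8%, against 49.6% for Prph2 and 53.2% for Cdhr1 and a median of 52.4% over all promoters of the table. In windows of 300 bases, from 250 before to 50 after the start, 7 of the 9 genes had 8 promoters. Besides the 3 genes above, both starts of Prom1 and those of Fscn2, Impg1 and Impg2 lie inside the gene, not at its outer end. None of these 8 held TGCTGA, a part of the element bound by large Maf proteins such as NRL, on either strand, and none held TAATCC, the longer core bound by CRX. Of all 32851 promoters in the table, 19.5% held the first and 7.06% the second. The shorter TAATC, which lies within TAATCC and was added after the data were seen, was found in 4 of the 8 windows (1 each of Prph2, Prom1, Impg1 and Impg2) and in 22.0% of all promoters. In the Prph2 stretch above it begins 61 and 30 bases before the start, on opposite strands. Of the windows with TAATC, only that of Prph2 has its start at the outer end of the gene. The presence or absence of these letters speaks only of these windows.

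The level of Nrl itself, the targeted gene, was a log2 signal of 7.57 and 7.05 in the knockout pools, against 8.21 and 8.13 in the control pools. The knockout pools lay below both controls, with a log2 change of -0.86 (SE 0.18, limma adjusted p = 0.289). The labels do not say whether its probes lie in the part that Cre removes, so it is a limited check of the deletion. On the 4 arrays the medians of all probe sets ran from 5.99 to 6.04. Xist was at 4.07 and 10.66 in knockout replicates 1 and 2 and at 4.09 and 10.47 in control replicates 1 and 2, and the Y-linked Kdm5d and Uty ran the other way, so replicate 1 of each group was male by these genes and replicate 2 female. Differences within each replicate number are therefore differences within 1 sex, and they are given beside the pooled values.

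Rom1 encodes the rim protein that joins peripherin-2 in the complexes of the disc edge. Its log2 signal was 9.51 and 9.44 in the knockout pools, against 10.77 and 10.66 in the control pools. Both knockout arrays lay more than a log2 unit below the lower control, and the arrays of each group lay close together. The mean was 9.47 ± 0.05 in the knockout and 10.72 ± 0.08 in control (SD, n = 2 each), a log2 change of -1.24 (95% interval -1.49 to -0.997, limma adjusted p = 0.0209). It was -1.27 within the male and -1.22 within the female pools. Over all genes 39 were called (0.201%), and 12 of them were lower (0.0618%). Rom1 ranked 11 of 19421 by the size of its fall and 14 by p. With the replicate number as a block, which here is also the sex, the change was the same but its adjusted p was 0.0627, and with any 1 of the 4 arrays left out it ran from -1.30 to -1.19 with an adjusted p between 0.124 and 0.296. Whole retina was measured, so fewer rods and less RNA per rod cannot be told apart in this or any later value.

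Prph2 encodes peripherin-2, the tetraspanin on which rim formation depends. Its log2 signal was 8.76 and 8.63 in the knockout, against 9.32 and 9.28 in control. Both knockout arrays lay below both control arrays, by -0.56 within the male and -0.65 within the female pools. The log2 change of -0.61 (95% interval -0.86 to -0.36) did not pass over all genes (limma adjusted p = 0.181, unadjusted p = 9.40e-04).

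**Figure D1:**
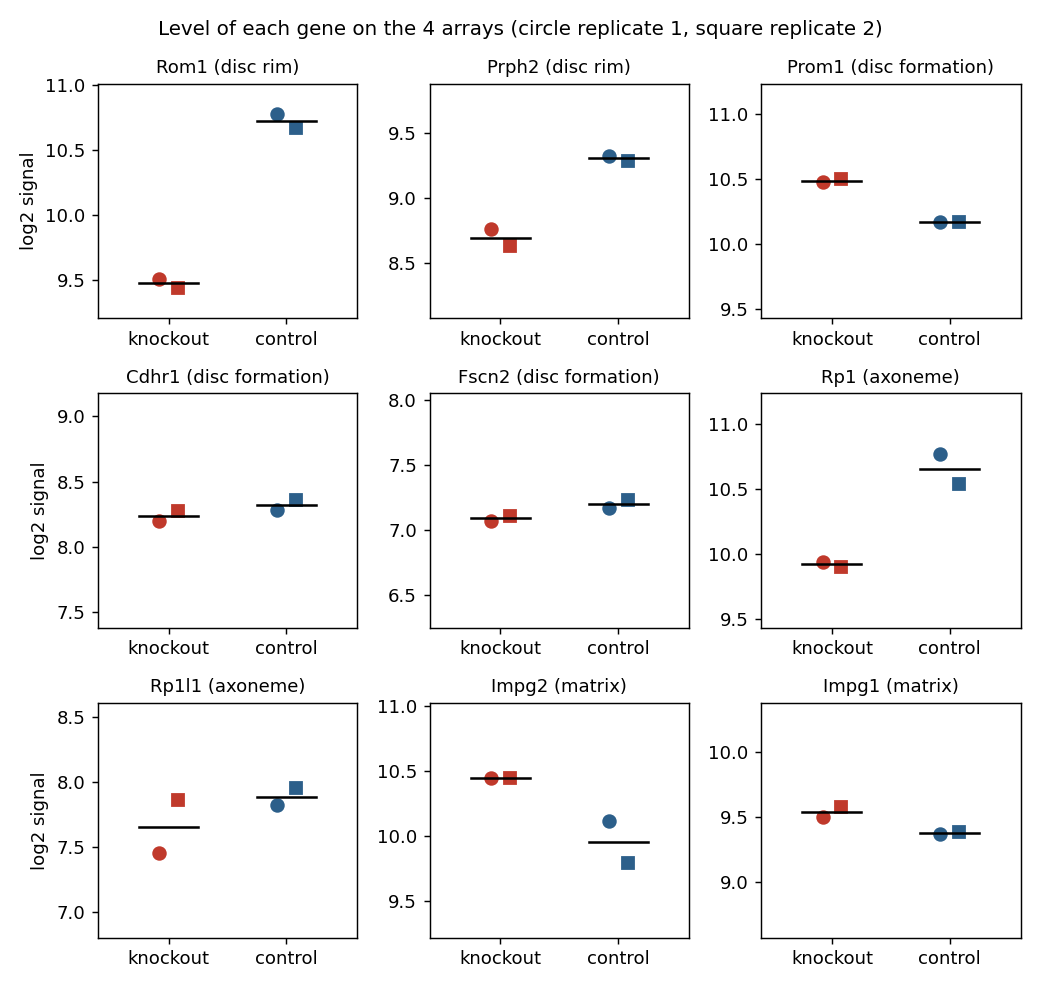
Log2 signal of each gene on the knockout arrays (red, left) and the control arrays (blue, right), with circles for replicate 1, squares for replicate 2 and a bar at each group mean; every panel spans the same number of log2 units. The Rom1 panel has the widest gap, 9.44 to 9.51 in the knockout against 10.66 to 10.77 in control, while Rp1l1 is the panel whose groups overlap.

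The shift of Rom1 was larger than that of Prph2 on the same arrays. The log2 signal of Rom1 minus that of Prph2 was 0.75 and 0.81 in the knockout and 1.45 and 1.38 in control, so the difference between the probe sets was smaller by 0.64 in the knockout (a value of -0.64), by 0.70 in males (-0.70) and 0.57 in females (-0.57). The same was computed for both other pairs of relatives, 3 pairs in all. Each gave p = 0.333 in a two-sided exact permutation test, and 0.333 after adjustment over the 3 pairs, which is the smallest p that 4 arrays allow.

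Among the genes of disc formation, Prom1 lay higher in the knockout. It encodes prominin-1, a protein of membrane protrusions that sits where new discs open. Its log2 signal was 10.48 and 10.50 in the knockout and 10.17 and 10.17 in control. The arrays of each group lay close together and the groups apart. The log2 change was 0.32 (95% interval 0.09 to 0.55), with 0.30 in males and 0.33 in females. It did not pass over all genes (limma adjusted p = 0.562, unadjusted p = 0.0152).

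Cdhr1, the photoreceptor cadherin at the base of the outer segment, had 8.19 and 8.27 in the knockout and 8.28 and 8.36 in control. Both knockout arrays lay just below both controls. Its log2 change was -0.09 (95% interval -0.33 to 0.15, limma adjusted p = 0.931). Fscn2, a fascin that bundles actin in photoreceptors and inner ear hair cells, had 7.07 and 7.11 in the knockout and 7.17 and 7.23 in control, again with both knockout arrays just below both controls. Its log2 change was -0.11 (95% interval -0.35 to 0.13, limma adjusted p = 0.903). The lower ends of the 2 intervals, -0.33 and -0.35, lie well short of the -1.24 of Rom1.

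The axonemal genes lay lower, and Rp1 more so. Rp1 encodes a doublecortin protein that binds the microtubules of the outer segment and keeps discs in register. It had 9.94 and 9.90 in the knockout and 10.77 and 10.54 in control. The knockout arrays were close to each other and both below the lower control. The log2 change was -0.73 (95% interval -1.01 to -0.45), with -0.82 in males and -0.64 in females. It did not pass over all genes (limma adjusted p = 0.148, unadjusted p = 6.40e-04).

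Rp1l1, a relative of Rp1 that acts with it at the axoneme, had 7.46 and 7.86 in the knockout and 7.82 and 7.95 in control. It is the only one of the 9 genes whose groups overlapped, with the second knockout pool above the first control pool. The log2 change of -0.23 (95% interval -0.61 to 0.14, limma adjusted p = 0.848) rested on knockout replicate 1: without that array it was -0.03, and without knockout replicate 2 it was -0.43. The log2 signal of Rp1 minus that of Rp1l1 was 2.49 and 2.04 in the knockout and 2.94 and 2.59 in control, a shift of -0.50 (two-sided exact permutation p = 0.333).

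Both matrix genes lay higher in the knockout. Impg2 encodes a proteoglycan of the interphotoreceptor matrix that spans the photoreceptor membrane. It had 10.44 and 10.45 in the knockout and 10.11 and 9.79 in control. The knockout arrays were nearly equal and the control arrays further apart. The log2 change was 0.49 (95% interval 0.17 to 0.81, limma adjusted p = 0.486, unadjusted p = 0.00938), with 0.33 in males and 0.65 in females. Its size turned on which control array was used, at 0.65 without control replicate 1 and 0.33 without control replicate 2.

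Impg1, a secreted glycoprotein of the same matrix, had 9.50 and 9.57 in the knockout and 9.37 and 9.38 in control. The groups did not overlap, but the log2 change of 0.16 (95% interval -0.08 to 0.39, limma adjusted p = 0.834) was small. The log2 signal of Impg2 minus that of Impg1 was 0.95 and 0.87 in the knockout and 0.74 and 0.41 in control, a shift of 0.33 (two-sided exact permutation p = 0.333).

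**Figure D2:**
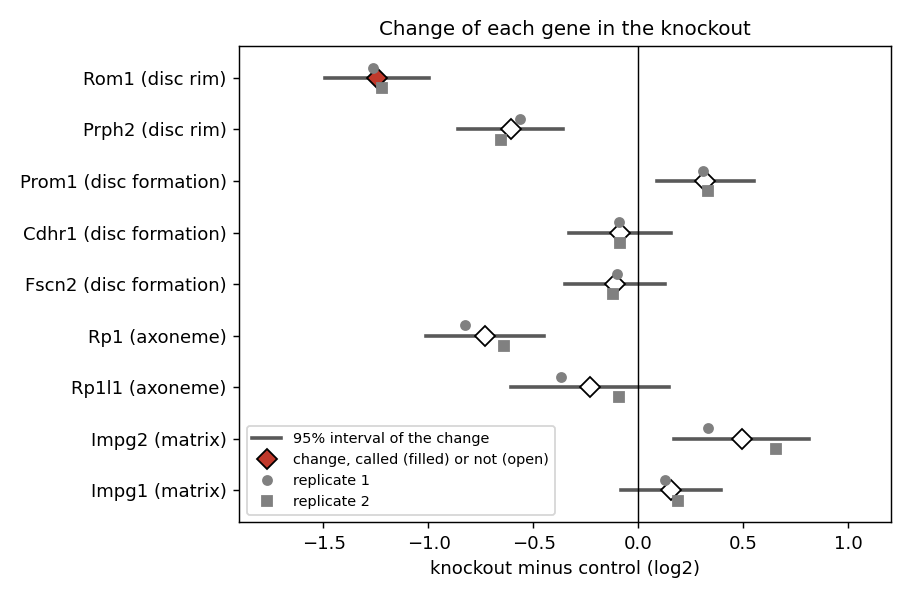
Knockout minus control on the log2 scale for each gene (diamonds, filled where called), with its 95% interval and the differences within replicate 1 (circles) and replicate 2 (squares). Rom1, Prph2 and Rp1 lie below 0 with intervals that leave out 0, Prom1 and Impg2 lie above 0 with intervals that leave out 0, and those of Cdhr1, Fscn2, Rp1l1 and Impg1 hold it.

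Counted together, 6 of the 9 genes lay lower and 3 higher in the knockout, with a median log2 change of -0.11, beside -0.0026 over all 19421 genes. At an unadjusted p under 0.05 there were 5 of the 9, 3 lower (Rom1, Rp1, Prph2) and 2 higher (Impg2, Prom1), where 7.07% of all genes reached that level, 3.37% lower and 3.71% higher. The 2 groups of arrays did not overlap in 8 of the 9, which was so for 35.4% of all genes. In 5 of these the knockout arrays were below the controls (18.4% of all genes) and in 3 above them (17.0%). The difference had the same sign in males and females in all 9 and in 54.5% of all genes. In the 8 genes without overlap this follows from the lack of overlap, so only Rp1l1 adds to that count. The size of the log2 change was above the 95th percentile of all genes, 0.34, in 4 of them: Rom1, Rp1, Prph2 and Impg2. These genes were named with earlier results in view, so the counts describe them and are no test of the group.

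Rod markers moved with the lower genes. Over all genes, 12 were called lower (0.0618%). Of 7 measured rod markers all lay below 0 and 2 fell, with log2 changes of -3.01 for Gnat1 and -1.47 for Gnb1 (limma adjusted p = 0.00586 and 0.0208, and 0.0429 and 0.0623 with the replicate block), while the list's median was -0.50. Their summed linear signal was 9880 and 9814 in the knockout, against 21289 and 20691 in control. The change of Rom1 lay beyond that median, Rp1 and Prph2 were nearer to it, and Prom1, Impg1 and Impg2 lay on the other side of 0. The part of rod loss or of lower rod transcription in these values was not tested.

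Some cone and microglial markers also passed, where 27 of all 19421 genes were called higher (0.139%). Of 9 cone markers, 2 rose, with log2 changes of 1.59 for Gnb3 and 1.10 for Gnat2, and 5 lay below 0, with a median of -0.13. Of 8 microglial markers 7 lay above 0 and 2 rose, Ctss by 1.53 and Tyrobp by 1.12, with a median of 0.53 and a summed signal of 1128 and 1042 in the knockout and 557 and 554 in control. With the replicate block none of these 4 stayed called (limma adjusted p = 0.0623 for Gnb3, 0.132 for Gnat2, 0.0539 for Ctss and 0.0729 for Tyrobp), and without control replicate 1 or 2 limma called 0 genes (1355 and 1328 at an unadjusted p under 0.05). Of 7 Müller glia markers none was called, and their median was 0.02: Clu, Gfap and Vim were at 0.89, 0.70 and 0.56, Slc1a3 and Aqp4 at 0.02 and 0.01, and Glul and Rlbp1 at -0.37 and -0.32. Their summed signal, 2202 and 2235 in the knockout and 1752 and 1739 in control, is weighted to its brightest member, Clu. Retinal pigment epithelium markers (8 genes, median -0.08), bipolar markers (5, -0.06), amacrine and ganglion markers (5, -0.06) and lens markers (3, 0.02) had no call. The mean log2 level of the rod markers was 10.33 and 10.35 in the knockout and 11.33 and 11.30 in control, and that of the bipolar markers 8.05 and 7.99 in the knockout and 8.17 and 7.98 in control, well over the array medians, while the lens markers averaged 5.78 and 5.83 in the knockout and 5.84 and 6.07 in control. No marker was at 0, as no value of the table is. The part of these cells in the higher values of Impg2 and Prom1 was not tested.

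The partners of the disc rim complex all lay lower. Of the 10 genes of this list 9 were measured and 0 were called in either direction. At an unadjusted p under 0.05, 6 of the list were lower, where 3.37% of all genes were. The median log2 change was -0.43, beside -0.0026 over all genes. Cngb1, whose rod channel subunit binds the rim proteins through its long N-terminal part, had 7.87 and 7.97 in the knockout and 8.68 and 8.68 in control, a log2 change of -0.76 (limma adjusted p = 0.0886). Abca4, the retinoid transporter of the disc rim, was at -0.67 (adjusted p = 0.149), and Cnga1, the other subunit of the rod channel and also a rod marker above, at -0.48 (adjusted p = 0.271). The smallest changes were those of Gucy2e (-0.20) and of the flippase subunits Atp8a2 (-0.21) and Tmem30a (-0.11).

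The list of genes tied to disc formation through actin did not share that direction. Of 9 listed, 6 were measured, 0 were called, 4 had a change over 0 and 2 a change under it, and the median was 0.12. Pcare, which brings actin-regulating proteins to the disc-forming site, had 8.06 and 8.17 in the knockout and 7.49 and 7.81 in control, a log2 change of 0.47 (limma adjusted p = 0.530). Arpc5 and Arpc1b, subunits of the Arp2/3 complex that branches actin, were at 0.24 and 0.20 (adjusted p = 0.843 and 0.802). The groups of Arpc5 overlapped, at 7.486 and 7.431 in the knockout and 7.434 and 6.997 in control. Whole retina was measured, so the cells behind the values of this list cannot be told.

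In the axoneme and cilium list 0 of 14 genes were called, 11 lay below 0 and 3 above, and the median was -0.06. Rpgrip1, the anchor of RPGR in the connecting cilium, had 8.23 and 8.27 in the knockout and 9.04 and 8.89 in control, a log2 change of -0.71 (95% interval -0.97 to -0.46, limma adjusted p = 0.122), close in size to Rp1. Mak, a kinase that limits the length of the photoreceptor axoneme and phosphorylates RP1, was on the other side at 0.36 (adjusted p = 0.504). Fam161a, a microtubule-binding protein of the connecting cilium, was at -0.34 (adjusted p = 0.602).

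Family relatives of the 9 genes that are not outer segment genes showed little change, but many were dim. Their mean log2 level was 5.52 and 5.53 in the knockout and 5.61 and 5.53 in control, under the array medians. Of 14 listed, 12 were measured, 0 were called, and 0 had an unadjusted p under 0.05. Their median was -0.05, and the 3 with the smallest p were Fscn3 at 0.24, Dcdc2c at -0.26 and Dclk2 at -0.18. Fscn3 and Dcdc2c lay under the lower quartile of every array (5.08 to 5.17) and Dclk2 above the medians. Whether the dim genes of this list are expressed cannot be told, so the list is a weak contrast.

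Of 13 genes of the retinal matrix and of hyaluronan 0 were called, 8 had a change over 0 and 5 a change under it, and the median was 0.02. Cd44, the hyaluronan receptor, had 6.30 and 6.76 in the knockout and 5.61 and 5.92 in control, a log2 change of 0.77 (95% interval 0.32 to 1.21, limma adjusted p = 0.399). Has2, a hyaluronan synthase, was at 0.28 (adjusted p = 0.653). It was dim, at 4.20 and 4.31 in the knockout and 4.00 and 3.95 in control, under the lower quartile of every array. Rbp3, the retinoid-binding protein that photoreceptors secrete into the matrix, was at 0.20 (adjusted p = 0.769), close to the 0.16 of Impg1. Cd44 is also made by reactive Müller glia and microglia. The microglial markers had a median of 0.53 and the Müller markers one of 0.02. The Müller list was split, with Clu, Gfap and Vim at 0.89, 0.70 and 0.56. Slc1a3 and Aqp4 were at 0.02 and 0.01, and Glul and Rlbp1 at -0.37 and -0.32. The part of microglia and of Müller glia in the value of Cd44 was not tested.

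**Figure D3:**
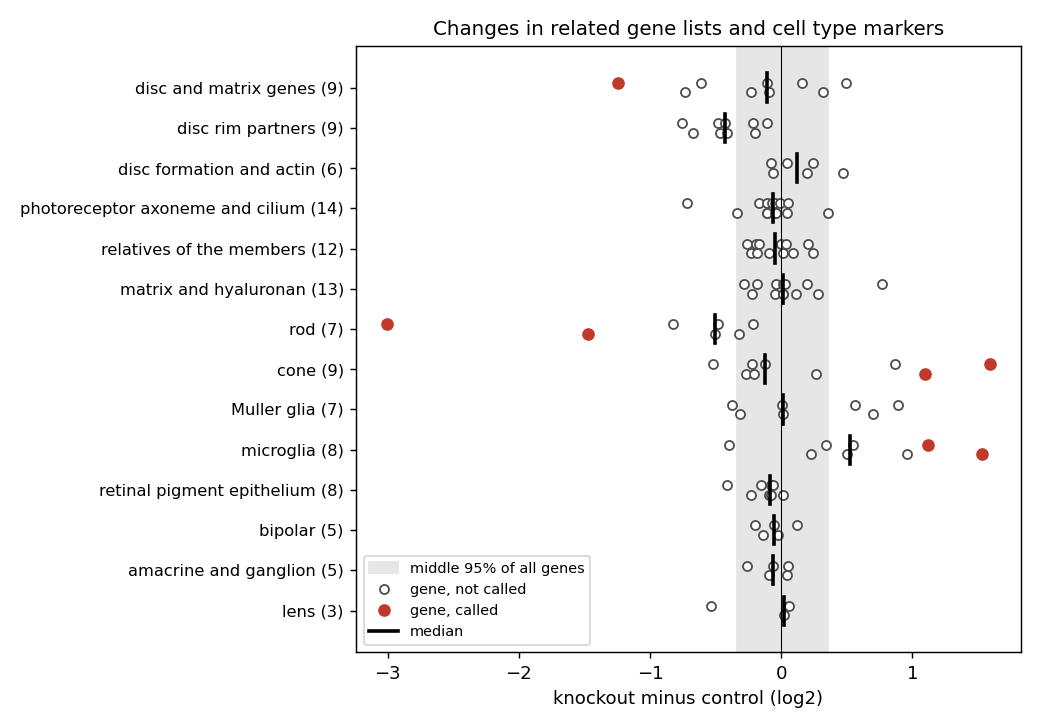
Knockout minus control on the log2 scale for the 9 genes (top), the 5 lists of related genes and 8 lists of cell type markers, with the number measured in brackets, filled points for called genes, black bars for medians and a grey band for the middle 95% of all genes. The median of the disc rim partners, -0.43, lies near that of the rod markers, -0.50, while the remaining related lists have medians from -0.06 to 0.12.

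The genes nearest to Rom1 in their profile over the 4 arrays, by the largest gap between log2 values centred on each gene's own mean, were Rabgef1 (gap 0.13), Ebpl (0.16) and Sh2d1a (0.17). Their log2 changes were -1.36, -1.47 and -0.99, and each was called (limma adjusted p = 0.0208, 0.0176 and 0.0366, but 0.0656, 0.0620 and 0.0950 with the replicate block). The genes nearest to Impg2 were Tcf24 (gap 0.04), Cd63 (0.04) and Ly86 (0.05), with log2 changes of 0.48, 0.49 and 0.53, of which none was called (adjusted p = 0.464, 0.399 and 0.368). With 4 arrays in 2 groups, such a profile is mostly the size of the change and the spread within each group.

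**Figure D4:**
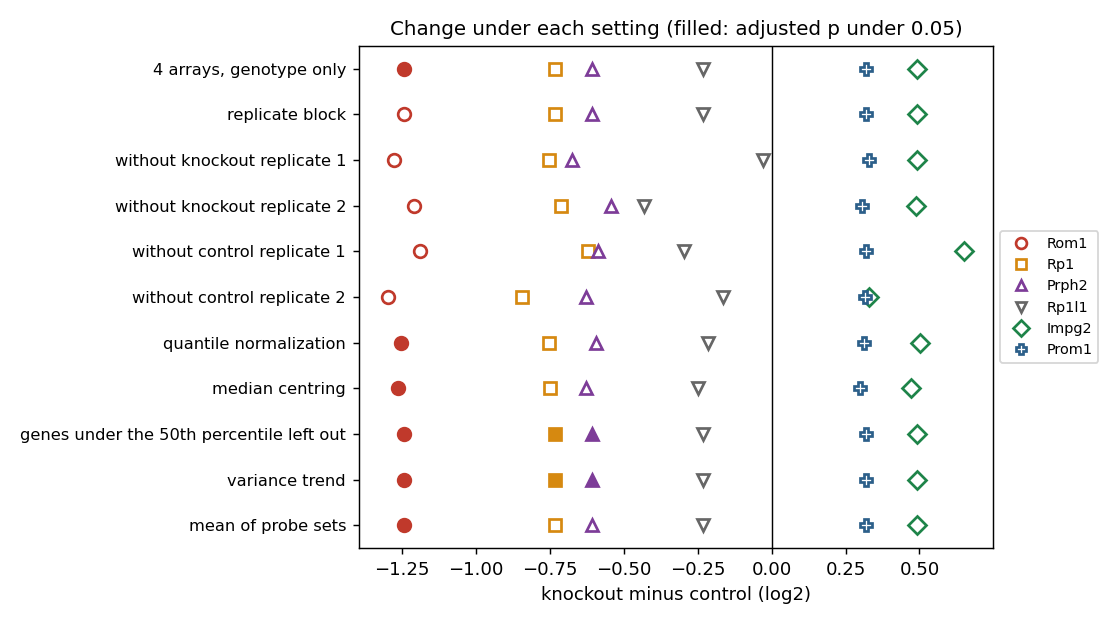
Knockout minus control on the log2 scale for 6 of the 9 genes under each way of processing or choosing the arrays, with filled symbols where the adjusted p is under 0.05. No symbol crosses 0; Rom1 is open with the replicate block and when any array is left out, and Rp1 and Prph2 are filled when dim genes are left out and with a variance trend.

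The calls of Rp1 and Prph2 depended on how the spread was modelled. When the prior variance was allowed to follow the mean level, 3 of the 9 genes were called, all lower: Rom1 (limma adjusted p = 4.00e-04), Rp1 (0.0106) and Prph2 (0.0154), where 0.242% of all genes were called lower. The same 3 were called when genes under the 50th percentile of mean level were left out (adjusted p = 0.00375, 0.0359 and 0.0399), where the share was 0.319%. No setting called any of the other 6 genes.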

How the data were processed

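The deposited table gives a log2 value on each of the 4 arrays for 21897 probe sets. The log2 scale was read from their range (1.34 to 12.75). Per the submitters' processing notes affy and limma were used, with no version or role; how background and array scale were handled is not stated in the sources used here. Without detection values, a dim gene and background look alike. Precision is limited by the number of arrays.

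The platform annotation gave 20877 probe sets 1 symbol, and the probe set with the highest mean stood for each of 19421 genes. The comparison was fitted in R 4.3.3 with limma 3.58.1 (two-sided lmFit and eBayes, with genotype as the single term) with Benjamini-Hochberg adjustment over all genes, and "called" means an adjusted p under 0.05. Changes are knockout minus control, SE is the moderated standard error, and the 95% intervals are not adjusted for multiple genes. The pools are of different animals. The steps were tested on simulated data. Exact permutation tests used SciPy 1.17.1; 4 arrays allow no p under 0.333.

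The 9 genes, the related and marker lists, the naming rule and the tests were chosen with earlier results of these data known. The rule named the 9 genes, Nrl, the called members of each related list or otherwise its 3 smallest p, and the 3 profiles nearest to Rom1 and to Impg2. Genes named outside it were chosen after their values were seen: Gucy2e, Atp8a2 and Tmem30a, with the cell type markers named. List members without a single-symbol probe set were not analysed here.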

Additional observations from a re-analysis of the deposited data

How the results depend on the processing

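All 9 genes kept their direction under the 10 alternatives tried (replicate number as a block, each array left out, quantile normalization, median centring, genes under the 50th percentile of mean level left out, a variance trend, and the mean of probe sets). In 4 of them, the block, the filter, the trend and the mean of probe sets, the size of these changes could not move. The design is balanced and each gene has 1 probe set. Leaving out 1 array could not reverse a gene whose groups do not overlap, which held for 8 of the 9. For these 8 the direction was open only under quantile normalization and median centring, and for Rp1l1 also with an array left out. Of the 90 values, 81 kept their side of the threshold, 5 lost a call (Rom1 with the block and without each array) and 4 gained one (Rp1 and Prph2 with the filter and with the trend). The 39 calls over all genes became 8 with the replicate block, 89 with the filter and 128 with the trend, and 0 to 11 when 1 array was left out. Without control replicate 1 or 2 limma called 0, with 1355 and 1328 genes at an unadjusted p under 0.05. The called members, 1 with all arrays, were 0 with the replicate block, 3 with the filter and 3 with the trend. With any 1 array left out, the log2 change of Prom1 ran from 0.31 to 0.33. That of Rp1l1 ran from -0.43 to -0.03. With an array left out or a block fitted there are fewer residual degrees of freedom, and the lone array of a group is assumed to vary like the other group. The labels give no sign that equal replicate numbers share animals; the pools of a number share only the number and, by Xist, the sex. Over its alternatives the adjusted p of Rom1 ran from 4.00e-04 to 0.296.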
